A study of Danio rerio with 8 samples.

Results

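Of 43603 array probes measured in zebrafish (Danio rerio) liver, 43 read at least 2-fold higher in RNA labelled 5 µM cadmium than in RNA labelled 0 µM on every array that set these doses against each other. The members were chosen by those ratios, on 3 arrays, so the ratios describe the choice and are given without a test. The platform annotation pairs 27 of the 43 probes with 1 gene each, 24 genes in all, and leaves 16 unnamed here. Total RNA of 7 samples lay on 8 Agilent 2-colour arrays in a loop: replicates 1 and 2 of 0 µM, of 1 µM and of 5 µM cadmium, all from day 28, and a single sample of 0 µM from day 4. The labels name cadmium dose, day and replicate for each sample, and give liver as the tissue throughout. Strain, age, route of exposure and the number of fish behind an RNA are not stated in the labels. Nothing says that replicates came from separate fish, so no p-value here measures a spread between fish, and differences between replicates may be technical. The main fit, of 5 arrays, left 1 residual degree of freedom. Its p-values rest on how far the dye terms of 2 separate rings of arrays disagree, with variances moderated over all probes. The difference between the 2 samples of 1 µM does not enter them.

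Each value is a log2 ratio of 2 RNAs on 1 array, where 1 means 2-fold and 0 means equal signal. Red (Cy5) over green (Cy3) is the likely direction, from the order of the sample titles; neither direction nor base is stated, and a turned direction would turn every sign below. No spot intensities were used here, so a dim probe cannot be told from a bright one, and the number of arrays limits the precision. Ratios carry no level, so the liver label could not be checked against marker levels, and fewer cells of a type cannot be told apart from less RNA per cell.

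The named genes include several of fat and energy metabolism. In a cell, long fatty acids enter mitochondria through carnitine palmitoyltransferase 1, are shortened by acyl-CoA dehydrogenases and their partners, and can leave the liver as ketone bodies, which other tissues burn with the help of succinyl-CoA transferase. Fasting and stress hormones are known to raise this flow of fat in vertebrates. Another well-known stress hormone target is FKBP5, a co-chaperone that binds the glucocorticoid receptor complex and whose gene the receptor induces. The liver is a main store of cadmium, which metallothioneins bind there.

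The 3 direct arrays are given below in a fixed order: 5 µM replicate 1 over 0 µM replicate 1, 5 µM replicate 1 over 0 µM replicate 2, and 5 µM replicate 2 over 0 µM replicate 2. The RNA of 5 µM was green on the first and second of these and red on the last. The choice thus required the same direction in both dye orientations, so that direction is no result. Among the 43 the median ratios were 1.46, 1.91 and 1.41, with highest values of 2.68, 4.52 and 4.24. The probe just inside the threshold, tmem120ab, had a smallest ratio of 1.004, and the probe just outside, of the mitochondrial gene ND3, had 0.999. Replicate 1 of 5 µM and replicate 2 of 0 µM each lie on 2 of these arrays, so the arrays are not independent. With the same 5 µM RNA as partner, replicate 2 of 0 µM read lower than replicate 1 in 32 of the 43, by a median log2 difference of -0.33. These are arrays of the choice, which asked for a low replicate 2 on 2 arrays and a low replicate 1 on 1, so the difference is a description of the choice.

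The 5 arrays outside the choice set 5 µM replicate 1 over 1 µM replicate 1, 5 µM replicate 2 over the day 4 sample, 1 µM replicate 1 over the day 4 sample, 1 µM replicate 2 over 0 µM replicate 2, and 1 µM replicate 2 over 0 µM replicate 1. The third of these, 1 µM replicate 1 over day 4, is the only array that holds no RNA of the choice. The other 4 each share 1 RNA with it, so a probe picked for a high 5 µM sample or a low 0 µM sample tends to keep that on them.

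The gene cpt1b, the carnitine palmitoyltransferase 1 form best known from muscle, had 3 member probes. On the direct arrays A_15_P117834 read 1.64, 2.90 and 2.46, A_15_P167646 read 1.85, 2.84 and 2.46, and A_15_P167651 read 2.11, 2.86 and 2.12. All 3 probes also gave high 5 µM signal outside the choice: over 1 µM replicate 1 they read 3.05, 2.99 and 2.58, and over the day 4 sample 2.14, 1.93 and 2.15. Between 1 µM replicate 1 and day 4, A_15_P117834 and A_15_P167646 lay near equality at -0.20 and -0.011, whereas A_15_P167651 read -3.73. The probes of this gene thus disagreed on that array alone by more than 3 log2 units, while their largest difference on any of the 5 arrays was 0.78 for the first pair. Over 0 µM replicate 2, 1 µM replicate 2 read 1.38, 0.60 and -0.045 for them in the same order. Over 0 µM replicate 1 the ratios were -0.21, -0.45 and 0.014, all within 2-fold. The remaining cpt1b probe, A_15_P581667, missed the choice with 0.15 over 0 µM replicate 1, but read 2.40 and 1.70 on the other direct arrays, 1.94 over 1 µM replicate 1 and 1.09 over day 4.

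The single probe of acadvl, the very long chain acyl-CoA dehydrogenase of mitochondria, read 1.24, 1.33 and 1.35 on the direct arrays. It was 1.37 in 5 µM replicate 2 over day 4 and 0.60 in 5 µM replicate 1 over 1 µM replicate 1, and 1 µM replicate 2 also stood above 0 µM replicate 1 with 1.86, though only 0.20 above replicate 2. Oxct1b, a succinyl-CoA transferase with which cells burn ketone bodies, read 1.15, 2.07 and 1.41. Outside the choice its ratios were 0.72 over 1 µM replicate 1 and 0.62 over day 4. For acadvl and oxct1b 1 µM replicate 1 lay within 2-fold of day 4, at 0.098 and -0.27. Fabp7a, a fatty acid binding protein of the cytosol, read 1.2, 2.82 and 2.52, and 1 µM replicate 2 over 0 µM replicate 2 gave a like 2.32. Over 0 µM replicate 1 the same 1 µM sample gave only 0.53, read in the other dye. Agpat4, an acyltransferase of phospholipid synthesis, read 1.18, 2.12 and 1.09 on the direct arrays and only 0.33 and 0.49 for 5 µM over 1 µM replicate 1 and over day 4.

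Fkbp5, the receptor co-chaperone, was a member through both of its probes. A_15_P100902 read 2.41, 2.68 and 2.16 on the direct arrays, and A_15_P365290 read 2.03, 1.95 and 1.47. Over 1 µM replicate 1 the 5 µM sample was high at 3.2 and 2.73, and over day 4 at 2.60 and 1.78. The array with no RNA of the choice placed 1 µM replicate 1 close to day 4, at 0.57 and 0.37. Unlike most members, fkbp5 read lower in 1 µM replicate 2 than in either 0 µM sample: -0.22 and -0.41 against replicate 2, and -1.41 and -1.16 against replicate 1. The ratios of these 2 probes followed each other with r = 0.993 over the 5 arrays, a description, since the points share arrays and RNA. Outside the choice, fkbp5 was thus high in 5 µM replicate 1 over 1 µM replicate 1 and in 5 µM replicate 2 over day 4. On the direct arrays the choice required it, and these 5 µM samples are those of the choice.

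Among genes that handle foreign or oxidised compounds, cyp2k18, a cytochrome P450, read 1.31, 2.42 and 2.57 on the direct arrays. It was also high in 5 µM outside the choice, with 1.76 over 1 µM replicate 1 and 1.72 over day 4, and 1 µM replicate 2 stood 1.87 above 0 µM replicate 2 but only -0.00076 from replicate 1. Mgst1.2, a microsomal glutathione transferase, read 1.14, 2.28 and 1.25, but 0.39 over 1 µM replicate 1 and 0.59 over day 4. Msrb2, a mitochondrial enzyme that repairs oxidised methionine, read 1.28, 2.15 and 1.35, with 0.61 and 1.09 outside the choice. In both of them 1 µM replicate 2 exceeded 0 µM replicate 2, by 1.67 for mgst1.2 and 1.38 for msrb2, and lay close to replicate 1, at -0.21 and -0.11.

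Dhrs4 and rbp2a belong to retinoid and carbonyl metabolism in vertebrates. The probe of dhrs4, a short-chain dehydrogenase/reductase, read 1.95, 1.79 and 1.60 on the direct arrays. Outside the choice its ratios were 1.39 for 5 over 1 µM and 0.97 and 0.45 for 1 over 0 µM, with 0.78 for 5 µM over day 4 and -0.026 for 1 µM over day 4. The choice required its ratios of 5 over 0 µM to be high. Its ratios of 5 over 1 µM and of 1 over 0 µM share RNA with the choice and were also above 0. The other probes of dhrs4 read -0.069 and -0.012 for 5 over 1 µM in replicate 1. The intracellular retinol binding protein gene rbp2a read 1.81, 1.2 and 1.65 on the direct arrays and 1.75 over 1 µM replicate 1, but 0.43 over day 4. In rbp2a the 1 µM sample was well above 0 µM replicate 1, at 3.17, and 1.00 above replicate 2. Those 2 ratios were read in opposite dyes, and the dye term of rbp2a in the limma fit was 0.78.

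Several members code for secreted or transported proteins. Cbln10, a relative of the cerebellins, had the largest ratios of all members on 2 direct arrays, with 1.14, 4.52 and 4.24; both large ones were set against 0 µM replicate 2. Its ratios were smaller outside the choice, 1.07 over 1 µM replicate 1, 1.21 over day 4, and 1.35 and -0.81 for 1 µM replicate 2 over 0 µM replicates 2 and 1. Cbln13 read 1.58, 1.92 and 1.06, with 1.23 and 0.72 for 5 µM over 1 µM and day 4. Lgals3bp.2, a galectin 3 binding protein gene, read 2.07, 2.12 and 1.22, with 1.16 over 1 µM replicate 1 and 0.46 over day 4. At 1 µM lgals3bp.2 was high against both 0 µM samples, 1.44 and 1.59, in either dye. Fam20cl, a relative of the secretory kinase gene fam20c, read 1.56, 1.88 and 1.05, with 1.07 over 1 µM replicate 1 and 0.26 over day 4.

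Amy2al1, an amylase gene, and nots, which encodes the liver aspartic protease nothepsin, had clear ratios on the direct arrays and weak ones for 5 over 1 µM. Amy2al1 read 1.33, 1.17 and 1.06, then 0.086 over 1 µM replicate 1 and 0.44 over day 4. On the same direct arrays the 18 probes of 12 exocrine pancreas marker genes had medians of 0.22, -0.34 and -0.93, with a range from -2.22 to 0.74, and amy2a itself read -0.45, -0.99 and -1.31. The amylase genes are close copies, so a probe may read more than one of them, and the part of pancreatic RNA in the amy2al1 ratios was not tested. Nots read 1.25, 1.77 and 1.45, but -0.046 for 5 over 1 µM in replicate 1, 0.16 for 5 µM replicate 2 over day 4 and 1.22 for 1 µM replicate 1 over day 4. At 1 µM replicate 2 it stood 1.36 and 0.86 above the 0 µM samples. The 7 probes of the estrogen response list (vitellogenins and esr1, genes of egg yolk production in the liver of females) had medians of 0.93, 1.5 and -0.19 on the direct arrays and 2.00 for 5 over 1 µM in replicate 1. Their part in the nots ratios was not tested.

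The remaining named members have varied or poorly known roles. Mb, myoglobin, the oxygen store of muscle, read 1.21, 1.04 and 1.94, but outside the choice all its ratios lay within 2-fold, from -0.30 to 0.75, and 5 µM replicate 2 read -0.28 against day 4. Map7d1b, a microtubule-associated protein gene, read 1.26, 1.26 and 1.22 on the direct arrays but 0.21 and 0.22 for 5 µM over 1 µM and over day 4. The membrane protein gene tmem120ab read 1.16, 1.33 and 1.00, with 0.77 and 0.88 outside. Si:ch73-141c7.1 read 1.39, 2.91 and 2.42, si:dkey-286h2.3 read 1.60, 1.91 and 1.17, and si:rp71-15k1.1 read 1.01, 1.45 and 1.18. In the same order of genes, 5 µM over 1 µM replicate 1 gave 1.92, 1.06 and 1.04, and 5 µM over day 4 gave 1.02, 1.2 and 0.25. Of these, si:rp71-15k1.1 was high at 1 µM against both 0 µM samples, 1.17 and 1.52, while si:ch73-141c7.1 gave 0.79 against replicate 2 and -1.79 against replicate 1. The probe of zgc:92744 read 1.92, 1.74 and 1.17, but 1 µM replicate 2 read -1.26 against 0 µM replicate 2, with 1 µM in green, and 1.32 against replicate 1, with it in red. Over 1 µM replicate 1 the 5 µM sample read 1.09, and 5 µM replicate 2 read -0.99 against day 4.

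The 16 members without a gene name had direct ratios of 1.00 to 3.79. In 5 µM replicate 1 over 1 µM replicate 1, 15 of them were above 0, with a median of 1.32, and in 5 µM replicate 2 over day 4 13 were, with a median of 0.51. The strongest on the direct arrays, A_15_P345640, read 2.68, 3.79 and 2.78, and outside the choice 2.03 over 1 µM but 0.070 over day 4. A_15_P473335 ran against the rest, with -1.28 for 5 over 1 µM and 3.10 for 1 µM over day 4, so 1 µM replicate 1 was its highest RNA there. A_15_P110740 gave -1.82 and 4.14 for 1 µM replicate 2 over 0 µM replicates 2 and 1, read in opposite dyes. These 3 IDs were picked after their values were seen.

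Taken array by array, the members mostly stood high where 5 µM RNA was present. In 5 µM replicate 1 over 1 µM replicate 1, 25 of 43 lay 2-fold or more above equality and 1 as far below, where 1.82% and 0.461% of all probes were; the median of members was 1.07 and that of all probes -0.00059. In 5 µM replicate 2 over day 4, 15 were at least 2-fold higher and 0 lower, against 0.766% and 0.608% of all probes, with a median of 0.62. Above 0 on both of these arrays were 36 of the 43 (23.9% of all probes), and at least 2-fold on both were 10 (0.128%). The 10 were the 3 probes of cpt1b, both of fkbp5, cyp2k18, cbln10, si:ch73-141c7.1, si:dkey-286h2.3 and 1 unnamed probe. Each of these arrays holds a 5 µM RNA that the choice required to be high, so their shares are not independent of it.

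On the array that shares no RNA with the choice, most members lay within 2-fold between 1 µM and day 4, with more of them above equality than below. In 1 µM replicate 1 over day 4, 3 lay 2-fold or more above equality and 1 as far below, where 0.913% and 0.61% of all probes were. The median was 0.31 (0.0012 for all probes), and 29 of 43 were above 0 (50.5% of all probes). Within 2-fold lay 39 of 43 (98.5% of all probes). The 1 µM RNA was red on this array. In the ring of 3 arrays that holds it, the dye term of members had a median of 0.24. It was above 0 in 35 of 43 members and in 51.6% of all probes. In the limma fit with a dye term the median for 1 µM against day 4 was -0.071, with 20 members above 0. The sample of day 4 differs from that of 1 µM in dose, day and dye. There is only 1 array, so no test of these was possible there.

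The 1 µM replicate 2 sample was set against each 0 µM sample, once in each dye. Over 0 µM replicate 2, with 1 µM in green, 20 of 43 were at least 2-fold higher and 5 lower (0.835% and 1.9% of all probes), with a median of 0.98. Over 0 µM replicate 1, with 1 µM in red, 12 were at least 2-fold higher and 3 lower (1.37% and 0.333%), with a median of 0.13. Dye and 0 µM replicate change together between these 2 arrays and cannot be told apart on them. The choice required low 0 µM signal, of replicate 2 on 2 arrays and of replicate 1 on 1. The counts of members above 0 µM in this paragraph are thus not independent of the choice and are no support for a change at 1 µM. Above both 0 µM samples were 18 members (22.9% of all probes), and at least 2-fold above both were 6 (0.0711%), among them lgals3bp.2, si:rp71-15k1.1 and 4 unnamed probes. A further 14 were at least 2-fold above replicate 2 and within 2-fold of replicate 1 (0.727%), among them amy2al1, cbln10, 1 probe of cpt1b, cyp2k18, fabp7a, fam20cl, mgst1.2, msrb2, nots, oxct1b, si:dkey-286h2.3 and tmem120ab. The reverse held for 4 (0.695%), which include acadvl and rbp2a, and 11 lay within 2-fold of both (96.3%). At least 2-fold below either 0 µM sample were 8 (2.19%), both fkbp5 probes included, and at least 2-fold towards red on both arrays, whichever RNA was red, were 2 (0.603%), zgc:92744 and A_15_P110740.

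A limma fit on the 5 arrays outside the choice, with a coefficient per condition and a dye term, put these arrays together. It made 0 calls at an adjusted p under 0.05, over all 43603 probes and so 0% of them, in each of its 5 contrasts. The self-test for 5 against 1 µM recovered 0% of simulated 2-fold and of 4-fold changes and 78.5% of 16-fold changes, so the lack of calls says little about changes of the sizes seen here. For 5 against 1 µM the median over the members was 0.84, with 39 of 43 above 0 and 18 at least 2-fold. Of all probes, 48.6% were above 0 and 0.75% at least 2-fold higher, with a median of -0.0031. Only replicate 1 of 1 µM enters the estimates of 5 against 1 µM, and the median of members stayed at 0.84 without 1 µM replicate 2. The contrast of 1 against 0 µM below thus rests on a different 1 µM sample. Limma's smallest adjusted p among members was 0.937, and 16 of 43 had an unadjusted p under 0.05, against 4.42% of all probes. This contrast uses the 5 µM samples of the choice, so the counts of members in it are not independent of the choice and are no support. The highest values were those of cpt1b, from 2.64 to 3.68 (SE 0.49 to 0.63), and of fkbp5, 2.81 and 2.29 (SE 0.55 and 0.45). The 3.68 was that of A_15_P167651, whose ratio of 1 µM replicate 1 over day 4 stood apart at -3.73. Its ratio of 5 over 1 µM on the array itself was 2.58, the lowest of the cpt1b member probes. These values of cpt1b and fkbp5 moved far with 1 RNA sample left out. Without 5 µM replicate 1, fkbp5 became 0.84 in A_15_P100902 and 0.67 in A_15_P365290, and cpt1b became 0.74 in A_15_P117834, 0.88 in A_15_P167646 and 5.94 in A_15_P167651. Without 5 µM replicate 2 or without the day 4 sample, those of fkbp5 were 3.80 and 3.10 and those of cpt1b 3.85, 3.51 and 2.55, in the same order. The lowest named value was -0.39, for nots, and its sign was not stable: it became -1.56 without 5 µM replicate 1 and 0.20 without 5 µM replicate 2 or day 4. Without 5 µM replicate 1 the median of members became -0.10. The contrast then runs through the day 4 sample, with a dye term from the arrays of 1 µM replicate 2 alone (median -0.25). A change in sample and a change in dye term thus cannot be told apart, and the cause was not tested.

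For 5 µM at day 28 against 0 µM at day 4 the median over the members was 0.98, with 42 of 43 above 0 and 21 at least 2-fold higher, and limma gave them adjusted p-values of 0.693 or more. In that contrast 14 members had an unadjusted p under 0.05, and 4.62% of all probes did. The 5 µM samples of the choice are used in it too, so its counts of members are no independent support. Of all probes, 49.5% were above 0 and 0.913% at least 2-fold higher in this contrast. The median over the members became 1.68 without 5 µM replicate 2 and 0.53 without replicate 1 of 5 µM or of 1 µM. For 1 against 0 µM the median was 0.69, with 33 of 43 above 0 and 12 at least 2-fold, a smallest adjusted p of 1.00 and 13 members at an unadjusted p under 0.05, against 2.61% of all probes. This contrast uses the 0 µM samples of the choice, and its 2 arrays hold 1 µM replicate 2 only. Of all probes, 49.9% were above 0 and 0.383% at least 2-fold higher in it. Without 0 µM replicate 2 the median over the members became 0.17. For 1 µM at day 28 against day 4 the median was -0.071, with 20 above 0 and 23 below, and 4 members had an unadjusted p under 0.05 (3.67% of all probes). Its estimates use replicate 1 of 1 µM only. Of all probes, 50.5% were above 0 in this contrast. Without either 5 µM sample the median over the members became 0.52, the other direction. The dye term of the members had a median of 0.088, from -0.65 for A_15_P167651 to 1.77 for A_15_P110740, and 9 members had an unadjusted p under 0.05 for it (4.71% of all probes). In that term 10 of 27 named and 13 of 16 unnamed members were above 0 (49.6% of all probes). The 3 arrays joining 5 µM, 1 µM replicate 1 and day 4 gave 22 of 27 and 13 of 16 (51.6%). The 2 arrays of 1 µM replicate 2 gave 8 of 27 and 11 of 16 (49.3%). Dye goes together with the 5 µM replicate on the former arrays and with the 0 µM replicate on the latter. A difference in dye between named and unnamed members thus cannot be told apart from replicate differences, and was not tested.

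With all 8 arrays and the replicate number as a block, limma called 1 probe for 1 against 0 µM, and it was that of nots (log2 change 1.45, SE 0.045, adjusted p = 0.0405). That fit holds the arrays of the choice, which required low 0 µM signal, so the call is no independent support.

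Other probes of the same genes are a further reading of the same RNA. Of the 24 genes, 8 had other probes, 10 in all, which missed the choice. On all 3 direct arrays 7 of the 10 were above 0, and 15.9% of all probes were. Their sizes were mostly small, with a median of 0.13 for the smallest of the 3 ratios. The genes were picked through another probe on these same arrays, so this share is no independent support. In 5 µM replicate 1 over 1 µM replicate 1 and in 5 µM replicate 2 over day 4, 6 of the 10 were above 0 on both (23.9% of all probes). Those 2 arrays hold 5 µM RNA of the choice as well. The 2 other probes of tmem120ab read 1.63 and 1.51 over 0 µM replicate 2 in 5 µM replicate 1, but -0.31 and 0.40 over 0 µM replicate 1, and 1.43 and 1.19 in 5 µM replicate 2 over 0 µM replicate 2. The other probe of zgc:92744 read 1.33, 0.66 and 1.22, and that of mb 0.40, 1.07 and 0.61. The other probe of cyp2k18 read -0.11, 0.0084 and 0.039, far from the 1.31 to 2.57 of the member, and the 2 other probes of dhrs4 read at most 0.23 there. Those of msrb2 and rbp2a also stayed at 0.36 or less. Whether such probes are dim or read another transcript was not tested.

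The genes around these members were read with 2 lists picked by function after the members' genes had been seen, and they get no test. Of 29 probes for 19 genes of fatty acid oxidation and ketone bodies, 5 were members; of the other 24, 14 read higher at 5 µM on all 3 direct arrays and 1 lower. Acaa2, a thiolase, read 0.50, 1.62 and 1.44, and etfdh, which passes electrons on to the respiratory chain, 0.51, 1.37 and 1.19. The lower probe, of oxct1a, read -0.19, -0.54 and -0.013, and acadm, another acyl-CoA dehydrogenase, was mixed at -1.45, 0.92 and 0.89. The 14 include probes near equality, such as 1 of cpt1ab with 0.15, 0.046 and 0.042. The liver type genes cpt1aa and cpt1ab stayed below 0.6 on all 3 arrays. Of 17 probes of genes known as glucocorticoid-induced that were no members, 12 read higher on all 3 and 1, of per1b, lower. The lower per1b probe read -1.01, -1.54 and -1.84, past 2-fold on each. The 12 include probes near equality, such as the other probe of per1b with 0.081, 0.00023 and 0.027. For tsc22d3, a gene that glucocorticoids induce in many tissues, 1 probe read 1.88, 1.54 and 0.85 and the other 0.68, 0.76 and 0.34. Over 1 µM replicate 1 they read 1.59 and 0.80, and over day 4 0.71 and 0.23. All 19 probes of this list, fkbp5 included, had a median of 0.76 for 5 µM replicate 1 over 1 µM replicate 1. For 5 µM replicate 2 over day 4 it was -0.047, with a range from -1.26 to 2.60, so the list did not follow fkbp5 there. The share of all probes was 15.9% higher and 16.7% lower on all 3 arrays. These counts use the arrays and RNA of the choice, so they describe it and are no independent support.

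None of the lists written earlier held a member. The metal binding list had 5 probes for 3 genes. Of these probes 0 were higher and 0 lower at 5 µM on all 3 arrays, and the single metallothionein probe, of mtbl, read -0.18, -0.076 and 0.012. No probe was named for mt2, another metallothionein gene on that list, or for slc39a14, so both went unread. Of 20 heat shock and folding probes 3 were higher and 8 lower, of 16 for glutathione and oxidative stress 2 and 5, and of 16 for acute phase and iron 3 and 5. Of 13 lipid and sterol probes 9 were higher and 0 lower, led by elovl6, a fatty acid elongase, with 0.35, 2.91 and 1.92 in 1 probe and 0.20, 1.73 and 1.14 in the other. The 9 include probes near equality, such as that of fabp1a with 0.17, 0.044 and 0.0098. Of 6 xenobiotic probes 1 was higher, of 7 estrogen response probes 2, and of 13 cell cycle probes 4 were lower. Of all probes 15.9% were higher and 16.7% lower on all 3 arrays. The counts of these lists rest on the arrays of the choice, so they are no independent support. In the fit of the 5 arrays 0 probes of these lists were called.

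Markers of other tissues differed between arrays in different ways. The 5 probes of 4 ovary marker genes had a median of -2.08 for 5 µM replicate 1 over 0 µM replicate 2 and -1.01 for 1 µM replicate 2 over it, but -0.33 for 5 µM replicate 1 over 0 µM replicate 1 and -0.083 for 5 µM replicate 2 over 0 µM replicate 2. Cell cycle probes gave -1.38, -0.80, -0.056 and -0.033 in the same order. On all 3 direct arrays 4 of the 5 ovary probes were lower at 5 µM and 0 higher, where 16.7% and 15.9% of all probes were. The probe of zp2.1 read -1.26, -3.62 and -1.22 there, past 2-fold on each, so it is among the probes chosen as lower on these arrays. Exocrine pancreas probes read higher in the day 4 sample than in its partners, with medians of -0.93 for 1 µM replicate 1 and -1.41 for 5 µM replicate 2 over it. Medians of liver markers lay between -0.53 and 0.33 over the 8 arrays, and those of erythrocyte and leukocyte markers between -0.13 and 0.14. Single liver marker probes ran wider. Their lowest ratio was -3.44, for 1 µM replicate 2 over 0 µM replicate 2, and their highest 2.54, for 1 µM replicate 2 over 0 µM replicate 1. Medians of intestine and testis markers lay between -0.39 and 0.18. The part of all these markers in the ratios of the members that rest on 0 µM replicate 2 or on day 4 was not tested.

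The mirror set, 31 probes at least 2-fold lower at 5 µM on all 3 direct arrays, differed in how it behaved elsewhere. For 5 over 1 µM in replicate 1 its median was -0.25, with 17 below 0 and 14 above, where 41 of the 43 higher probes were above 0. For 1 µM replicate 2 over 0 µM replicate 2 all 31 were below 0, with a median of -1.64, while over 0 µM replicate 1 only 8 were, with a median of 0.70. Of all probes, 50.3% and 49.0% were above 0 on these arrays. The mirror set was chosen for high 0 µM replicate 2 on 2 direct arrays and low 5 µM signal on all 3. Its counts above share RNA with that choice and are not independent of it. At least 2-fold towards red on both arrays of 1 µM replicate 2 were 11 of the 31, against 2 of the 43 and 0.603% of all probes. These differences between the sets were not tested.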

How the data were processed

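The authors deposited 1 log2 ratio per probe and array; log2 is inferred from its size (-7.16 to 5.21), with array medians of -0.0020 to 0.0024. Limma is the tool that the submitters' processing notes name, without a version; how background was corrected and arrays normalized is not stated there or in the labels. Of 43603 probes, 23717 have 1 gene in the platform annotation, 0 have several and 19886 none; 23534 matched a RefSeq gene ID through which symbols were updated. Members and lists were chosen with earlier results of these data known. Every member with 1 gene is named. No value was missing, and 0 columns of values were left aside. The labels give no batch.

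Ratios were turned so that the exposed or higher dose is on top. A linear model per probe (lmFit and eBayes of limma 3.58.1, under R 4.3.3) was fitted to the 5 arrays outside the choice, with 3 condition coefficients and a dye term, which left 1 residual degree of freedom. All p-values are two-sided, adjusted after Benjamini-Hochberg over the whole table, with a threshold of 0.05. The fit was tested on 43603 simulated probes, 200 of them changed for 5 against 1 µM. Simulated noise was drawn independently for each array, with residual SDs of the fit of all 8 arrays shuffled over probes. It thus did not follow the members' own noise or the RNA shared between arrays, and the shares recovered need not hold for the members. Alternatives were the dye term, centring, scaling, all 8 arrays, a replicate block, array weights, robust moderation, thresholds and each RNA left out. Counts used Python 3.11.15 and pandas 2.3.3. The pairing by replicate number was not checked by correlation, since only 2 numbers exist and the labels name no shared fish.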

Additional observations from a re-analysis of the deposited data

How the results depend on the processing

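The number of members, 43, became 202 at 1.5-fold, 7 at 3-fold, 44 with arrays centred on the median, 80 with arrays scaled to the same spread (41 of them shared) and 27 with the dye term of the other arrays taken off (23 shared). With 1 direct array left out it ran from 44 to 167. The 5 medians over members moved by less than the SD of their paths through the loop in every setting that kept all arrays of the fit or used all 8, though that of 1 µM against day 4 was 0.099 with all 8 arrays and a replicate block, the other sign, and that of the dye became -0.018 with all 8 arrays, also the other sign. With an RNA sample left out they ran from 0.17 to 1.08 for 1 against 0 µM, from -0.10 to 1.30 for 5 against 1 µM, from -0.071 to 0.52 for 1 µM against day 4, from 0.53 to 1.68 for 5 µM against day 4 and from -0.25 to 0.24 for the dye. No residual degree of freedom was then left, so these are values with no test. The 0 calls of limma became 1, for 1 against 0 µM, with all 8 arrays and a replicate block; every other setting, robust moderation and an adjusted p under 0.01 included, gave 0. In the fit as reported, where limma made 0 calls, 1137 to 2053 probes had an unadjusted p under 0.05; in other fits of the same 5 arrays, also with 0 calls, it was 1005 to 2692. Of 324 values for 5 against 1 µM of the 27 named probes in other settings, 98 moved by more than the SD of their paths and 30 changed sign. The causes were not tested. Depth is limited by array number; signal over background is not known here.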
